A study of Mus musculus with 6 samples.

Results

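The genes described here are 8 forkhead transcription factors of mesenchyme and of the vessel wall, *Foxf1*, *Foxf2*, *Foxc1*, *Foxc2*, *Foxo1*, *Foxo3*, *Foxp1* and *Foxs1*, which were taken by name. They are 8 of the 34745 genes listed in the expression table and 8 of its 44 forkhead genes, and all 8 were among the 14084 genes that passed the filter on low counts and were tested. The libraries were made by RNA-seq of primary fibroblasts from the left ventricle, taken on Day 7 after tying off the left anterior descending artery of the heart in male mice of 8 to 10 weeks. Both groups had undergone this myocardial infarction (MI), and no sham-operated animals are among the 6 libraries. The 3 libraries labelled KO came from KDM5B-KO mice on a C57BL/6 background, in which CRISPR/Cas9 had removed the part of *Kdm5b* that encodes the JmjC domain, the catalytic domain of this histone H3K4 demethylase, together with a frameshift. The 3 libraries labelled WT came from littermates without the deletion. The deletion is not restricted to fibroblasts, and no sorting step is described for the fibroblast fraction. The comparison asks how these factors were expressed in fibroblasts of the infarcted heart under the labels KDM5B-KO and WT.

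Forkhead factors bind DNA through a winged-helix domain that is shared by the whole family, and the core of the sites they bind contains the letters TGTTTAC. Foxf1 and Foxf2 are mesenchymal factors that respond to hedgehog ligands in gut and lung and are needed for vessel formation, whereas Foxc1 and Foxc2 act in mesoderm, neural crest and epicardial mesenchyme and in arteries and lymphatic vessels. Foxo1 and Foxo3 are held out of the nucleus when phosphorylated by Akt and otherwise turn on genes of quiescence, stress resistance and cell death. Foxp1 is mainly a repressor with roles in heart, endothelium and immune cells, and Foxs1 is known from pericytes and other perivascular cells.

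Total counts ran from 12025403 to 15329427 per library, and 3 counts, the upper limit that a count of 0 allows, equal 0.193 to 0.245 CPM (counts scaled to library depth). These limits cover counting error only. *Kdm5b* was measured at 98.0, 107 and 105 CPM where the label was KO, and where it was WT at 108, 128 and 123 CPM, with a log2 fold change of -0.22 (standard error (SE) 0.07, edgeR adjusted p = 0.0574), so its RNA, counted over the whole gene, did not pass the test and these values do not show a loss of KDM5B in the libraries labelled KO. Of the 12 fibroblast markers, among them *Pdgfra*, *Tcf21* and *Col1a1*, all 12 were detected and all 12 were lower in KO libraries (log2 fold changes of -0.48 to -0.31) with a summed level of 26990 to 31470 CPM against 37750 to 40190 CPM. As a background for this count and those of the other markers, 17.7% of the tested genes passed as higher and 12.5% as lower. The marker lists were chosen with earlier results of these data known, so their counts are descriptive and no test against that share. Of the 19 endothelial markers, 15 were higher and 0 were lower, with log2 fold changes from -0.82 for *Sox17*, which like *Eng*, *Cldn5* and *Ptprb* did not pass, to 4.94, and with a summed level of 2764 to 3695 CPM against 897.5 to 899.8 CPM. The groups therefore differed in markers of both cell types, and in bulk RNA fewer cells of a type and less RNA per cell cannot be told apart. Of the 11 tested mural cell markers, which mark pericytes and smooth muscle, 7 were lower and 2 were higher, the latter near the share over all genes, and *Higd1b* and *Vtn* were at 0 in every library.

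The paired genes of each subfamily are near copies in the part that encodes the DNA-binding domain, which is where short reads could be assigned to the wrong member. The most alike stretches of 100 bases are shown for the *Foxf* pair, whose members differed in the test, and for the *Foxc* pair, the most alike, from the coding sequences of the GENCODE M21 annotation on GRCm38, all on the plus strand and 5′ to 3′, with capitals where the pair differs. The *Foxf1* and *Foxf2* stretches lie at chr8:121084633-121084732 and chr13:31626470-31626569, and those of *Foxc1* and *Foxc2* at chr13:31807628-31807727 and chr8:121117014-121117113, each within a coding exon.
Foxf1: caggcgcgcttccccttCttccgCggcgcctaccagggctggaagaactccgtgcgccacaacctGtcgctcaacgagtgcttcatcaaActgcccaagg
Foxf2: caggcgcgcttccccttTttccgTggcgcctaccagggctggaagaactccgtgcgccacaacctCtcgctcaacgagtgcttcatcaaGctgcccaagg
Foxc1: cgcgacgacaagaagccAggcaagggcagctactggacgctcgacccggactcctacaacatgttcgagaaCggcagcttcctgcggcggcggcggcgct
Foxc2: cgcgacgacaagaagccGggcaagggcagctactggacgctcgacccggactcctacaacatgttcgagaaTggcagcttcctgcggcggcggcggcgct

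*Foxf1* and *Foxf2* differed at 4 of the 100 bases and shared an unbroken run of at most 41 bases in their coding sequences. *Foxc1* and *Foxc2* differed at 2 of the 100 bases, and their longest shared run was 53 bases, the longest among the 28 pairs that the 8 genes form. The median longest run over the 28 pairs was 14 bases, and *Foxo1* and *Foxo3* shared 38. A read covering 1 of these stretches in full therefore meets at least 2 differing bases, but how reads that matched both copies were counted is not given in the sources used here. Counts of the paired genes are uncertain to that extent.

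Levels as deposited FPKM (fragments per kilobase of transcript, scaled to the depth of the library) placed the 8 genes in a wide range. The length behind each FPKM is not given, and the order between genes depends on it. In the deposited values *Foxc2* was the highest in both groups, at 14.0 ± 1.74 FPKM (SD, n = 3) under the label KO and 18.2 ± 0.441 FPKM (SD, n = 3) under WT. It stood above 84.9% and 88.7% of the genes with any count. *Foxs1* followed at 12.0 ± 0.661 FPKM and 16.1 ± 0.780 FPKM, and *Foxo3* at 8.23 ± 0.420 FPKM and 8.07 ± 0.0969 FPKM. *Foxf1* and *Foxf2* were the lowest in both groups. In the libraries labelled WT the order below *Foxo3* was *Foxp1* (5.77 FPKM), *Foxo1* (3.48 FPKM), *Foxc1* (3.02 FPKM), *Foxf1* (0.953 FPKM) and *Foxf2* (0.916 FPKM), and only the last 2 overlapped as neighbours. In the libraries labelled KO it was *Foxo1* (4.81 FPKM), *Foxp1* (4.73 FPKM), *Foxc1* (2.23 FPKM), *Foxf2* (1.16 FPKM) and *Foxf1* (0.413 FPKM). There the neighbours *Foxc2* and *Foxs1*, and *Foxo1* and *Foxp1*, overlapped between libraries. In deposited FPKM, *Foxf1* and *Foxf2* thus stood in opposite order by label, as did *Foxo1* and *Foxp1*, each time with overlap under 1 of the labels. In normalised CPM, which has no length scaling, *Foxp1* was above *Foxo1* under both labels. It was at 114 CPM under KO and 142 CPM under WT, against 41.2 and 30.5 CPM. Their longest annotated transcripts have 7177 and 8665 bases, so the place of *Foxp1* among the 8, also against *Foxc2*, depends on the length used. CPM over FPKM gives that length in kilobases, and for *Foxp1*, at 114 CPM and 4.73 FPKM under KO, it was well above 7177 bases. For *Foxo3*, at 91.1 CPM and 8.23 FPKM under KO, it was also above the longest annotated transcript, of 6848 bases. Deposited FPKM therefore place both genes lower than their longest transcripts would.

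**Figure D1:**
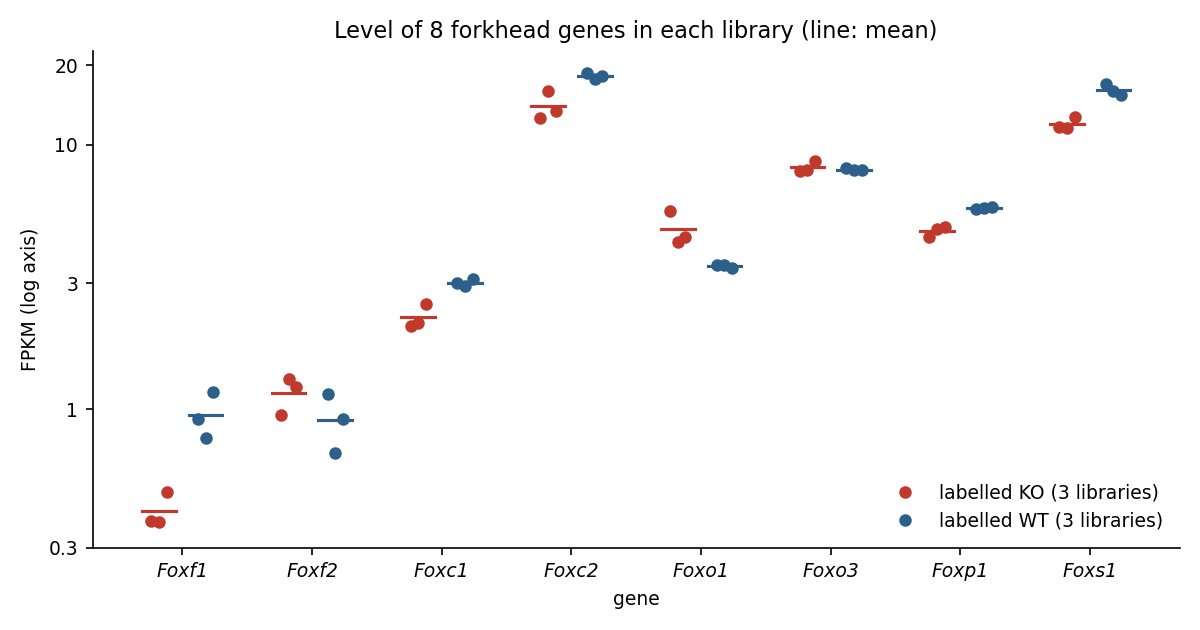
FPKM (log axis) of the 8 forkhead genes in each of the 3 libraries labelled KO (red points) and the 3 labelled WT (blue points), with a line at each group mean. The points of the 2 labels are apart for *Foxf1*, *Foxc1*, *Foxc2*, *Foxo1*, *Foxp1* and *Foxs1* and intermingle for *Foxf2* and *Foxo3*.

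Of the 8 genes, 5 were lower in the libraries labelled KO (*Foxf1*, *Foxc1*, *Foxc2*, *Foxp1* and *Foxs1*), 1 was higher (*Foxo1*) and 2 did not pass the test (*Foxf2* and *Foxo3*), by edgeR's quasi-likelihood test at an adjusted p under 0.05. Of all genes that were tested, 30.2% passed in either direction, 17.7% as higher and 12.5% as lower. Under upper quartile scaling the balance turned, with 2210 genes higher and 2263 lower. The normalised CPM of the groups did not overlap for 6 of the 8 genes, against 47.0% of all genes tested, with 1 of the 8 higher in KO, against 24.6%, and 5 lower, against 22.4%. The median log2 fold change of the 8 genes was -0.36, beside -0.02 over all genes tested. Single genes were also compared by exact two-sided permutation tests, for which 3 libraries against 3 give no p under 0.1, and each of the 6 genes whose groups did not overlap had that p.

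*Foxf1* (ENSMUSG00000042812, chr8:121084386-121088144 in mm10, plus strand, 2 exons) fell the most of the 8. It had 11, 12 and 18 counts in the libraries labelled KO and 32, 28 and 40 counts in those labelled WT, which equals 0.379, 0.375 and 0.486 FPKM against 0.918, 0.779 and 1.16 FPKM. Every library labelled KO was below every library labelled WT. The log2 fold change was -1.22 (SE 0.27, 95% interval -1.84 to -0.60, edgeR adjusted p = 0.0106), which is 42.9% of the WT level. *Foxf1* is also named in the picture of a heat map that the study made from these same libraries, so its direction is not independent evidence. At these counts the value is wide, and it ran from -1.36 to -1.05 when single libraries were left out.

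*Foxf2* (ENSMUSG00000038402, chr13:31625816-31631403, plus strand), the nearest relative of *Foxf1*, was not lower. It had 27, 41 and 44 counts in the libraries labelled KO and 39, 24 and 31 counts in those labelled WT. The groups overlapped, since KO replicate 1, at 2.21 normalised CPM, lay below WT replicate 1, at 2.73 CPM. The log2 fold change was 0.31 (SE 0.25, 95% interval -0.27 to 0.89, edgeR adjusted p = 0.387). It was 0.50 without WT replicate 1 and 0.14 without WT replicate 2 (edgeR adjusted p = 0.230 and 0.731). Within each library, which removes library scaling, the ratio of *Foxf1* to *Foxf2* in FPKM was 0.399, 0.286 and 0.400 in the 3 KO libraries, whereas it was 0.803, 1.14 and 1.26 under WT. The ratio was lower in all 3 libraries labelled KO than in any labelled WT, with a mean difference of -1.55 on the log2 scale of the counts.

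The *Foxc* pair fell together. *Foxc1* (ENSMUSG00000050295, chr13:31806691-31810643, plus strand, 1 exon) was at 2.06, 2.12 and 2.51 FPKM in the libraries labelled KO and at 3.01, 2.92 and 3.11 FPKM in those labelled WT. The groups did not overlap, and the log2 fold change was -0.47 (SE 0.12, edgeR adjusted p = 0.0189). *Foxc2* (ENSMUSG00000046714, chr8:121116171-121118895, plus strand, 1 exon) was at 12.7, 16.0 and 13.5 FPKM against 18.7, 17.8 and 18.2 FPKM, again without overlap, and its log2 fold change was -0.41 (SE 0.09, edgeR adjusted p = 0.0120). The ratio of *Foxc1* to *Foxc2* in FPKM was 0.132 to 0.186 in the libraries labelled KO and 0.162 to 0.171 in those labelled WT, so that the groups overlapped, with a mean difference of -0.06 on the log2 scale of the counts. The call of *Foxc1* lay near the threshold and was lost without KO replicate 1, KO replicate 2, WT replicate 1 or WT replicate 3. Its log2 fold change was then -0.41, -0.43, -0.47 or -0.44, and its edgeR adjusted p was 0.0586, 0.0549, 0.0510 or 0.0590.

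*Foxo1* (ENSMUSG00000044167, chr3:52268336-52353221, plus strand, 3 exons) was the gene that rose. It was at 5.64, 4.31 and 4.48 FPKM in the libraries labelled KO and at 3.50, 3.51 and 3.43 FPKM in those labelled WT. No value of the libraries labelled WT reached those labelled KO, and KO replicate 1 was the highest. The log2 fold change was 0.43 (SE 0.10, 95% interval 0.19 to 0.67, edgeR adjusted p = 0.0153). Without KO replicate 1 it was 0.31 with an adjusted p of 0.0175, and without WT replicate 3 it was 0.42 with an adjusted p of 0.0510. The summed endothelial markers were also highest in KO replicate 1, at 3695 CPM against 2764 and 3205 CPM in the other two libraries of that label, and their part in the *Foxo1* result was not tested.

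*Foxo3* (ENSMUSG00000048756, chr10:42181841-42276755, minus strand) was at 7.94, 8.03 and 8.71 FPKM in the libraries labelled KO and at 8.18, 8.01 and 8.01 FPKM in those labelled WT. The groups overlapped, and the log2 fold change was -0.01 (SE 0.06, 95% interval -0.13 to 0.12, edgeR adjusted p = 0.953). This interval holds changes of at most 0.13 in either direction. The ratio of *Foxo1* to *Foxo3* in FPKM was 0.514 to 0.711 in the libraries labelled KO and 0.428 to 0.439 in those labelled WT, without overlap. Of the summed FPKM of *Foxo1*, *Foxo3*, *Foxo4* and *Foxo6*, *Foxo1* made up 22.9% to 28.7% in the libraries labelled KO and 17.9% to 19.2% in those labelled WT. *Foxo4*, which shares the control by Akt, made up 28.6% to 32.3% and 36.6% to 38.9%. The lengths behind these FPKM are not given, so the ratios and shares can be compared between the labels but not between the genes.

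*Foxp1* (ENSMUSG00000030067, chr6:98925338-99522721, minus strand) and *Foxs1* (ENSMUSG00000074676, chr2:152931898-152933208, minus strand) were both lower. *Foxp1* was at 4.48, 4.80 and 4.91 FPKM in the libraries labelled KO and at 5.73, 5.76 and 5.81 FPKM in those labelled WT. Its log2 fold change had the smallest SE of the 8 and was -0.32 (SE 0.05, edgeR adjusted p = 0.00280). *Foxs1* was at 11.7, 11.6 and 12.8 FPKM against 17.0, 16.0 and 15.4 FPKM, with a log2 fold change of -0.46 (SE 0.09, edgeR adjusted p = 0.00602). Neither gene overlapped between the groups. Gene models that lie over the 8 genes took few counts: *Gm20388*, which spans *Foxf1* and *Foxc2* on the same strand, had 0 counts over the 6 libraries, and *Gm20696*, within *Foxp1*, had 45 against 10798 for *Foxp1*.

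Of the 36 other forkhead genes, 13 were tested, of which 1 was higher, 1 was lower and 11 did not pass, beside 17.7% higher and 12.5% lower of all genes tested, with a median log2 fold change of -0.04. *Foxm1*, a factor of dividing cells, was the higher one, at 7.59, 7.12 and 4.62 FPKM against 3.05, 3.46 and 2.42 FPKM, with a log2 fold change of 1.08 (SE 0.20, edgeR adjusted p = 0.00449). All 11 of the mitotic genes listed were higher as well. *Foxo4* was the lower one, with a log2 fold change of -0.32 (SE 0.08, edgeR adjusted p = 0.0151), and none of the 13 was lower without WT replicate 3. Without KO replicate 2 there were 2 higher and 2 lower genes, and 2 were higher under library size scaling and with no filter on low counts. The genes that did not pass included the ubiquitous *Foxk1* and *Foxk2*, at log2 fold changes of -0.04 and 0.02, and *Foxp4*, a relative of *Foxp1*, at -0.19 (SE 0.15). *Foxj2*, *Foxj3*, *Foxn2*, *Foxn3*, *Foxo6* and *Foxp2*, from -0.46 to 0.82, did not pass either. Of the 36 genes, 12 were at 0 in every library.

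**Figure D2:**
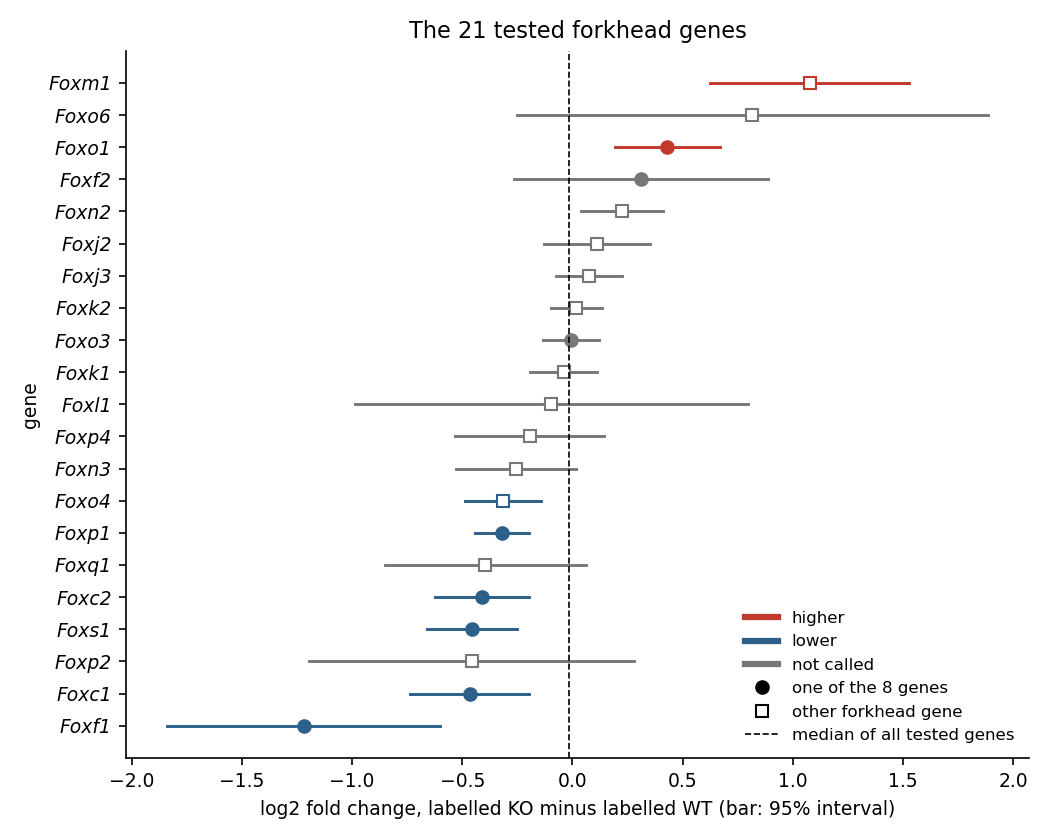
Log2 fold change (libraries labelled KO minus those labelled WT) of the 21 tested forkhead genes with its 95% interval from edgeR, for the 8 genes (filled circles) and the other 13 (open squares). Red marks genes called higher, blue genes called lower and grey those not called, and the dashed line is the median of all tested genes at -0.02. *Foxf1* at -1.22 is the lowest and *Foxm1* at 1.08 the highest.

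The 2 *Foxf* and 2 *Foxc* genes form 2 pairs of neighbours in the genome. *Foxf1* and *Foxc2* start 31.8 kb apart on chromosome 8, and both fell. *Foxf2* and *Foxc1* start 180.9 kb apart on chromosome 13, where *Foxc1* fell and *Foxf2* did not pass the test. Within 500 kb of the *Foxf1* and *Foxc2* starts, 8 of 25 other genes were tested, of which 2 were higher (*Irf8*, a factor of myeloid cells, at 0.68 and *Gins2*, a DNA replication factor, at 0.37), 2 were lower (*Fbxo31* at -0.47 and *Mthfsd* at -0.24) and 4 did not pass, where 17.7% of all genes tested were higher and 12.5% lower. *Cox4i1*, *Emc8* and *Map1lc3b* were among the 4, at 0.20, -0.17 and -0.09. *Mthfsd* starts between the pair and *Foxl1*, the third forkhead gene of the cluster, had a log2 fold change of -0.10 (SE 0.39, edgeR adjusted p = 0.875). *Fendrr*, a long noncoding RNA gene that starts 1.3 kb from *Foxf1* on the other strand, had 0 to 5 counts per library and was not tested. Near *Foxf2* and *Foxc1*, 1 of 12 other genes was tested, *Foxq1*, at -0.40 (SE 0.20, edgeR adjusted p = 0.170).

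**Figure D3:**
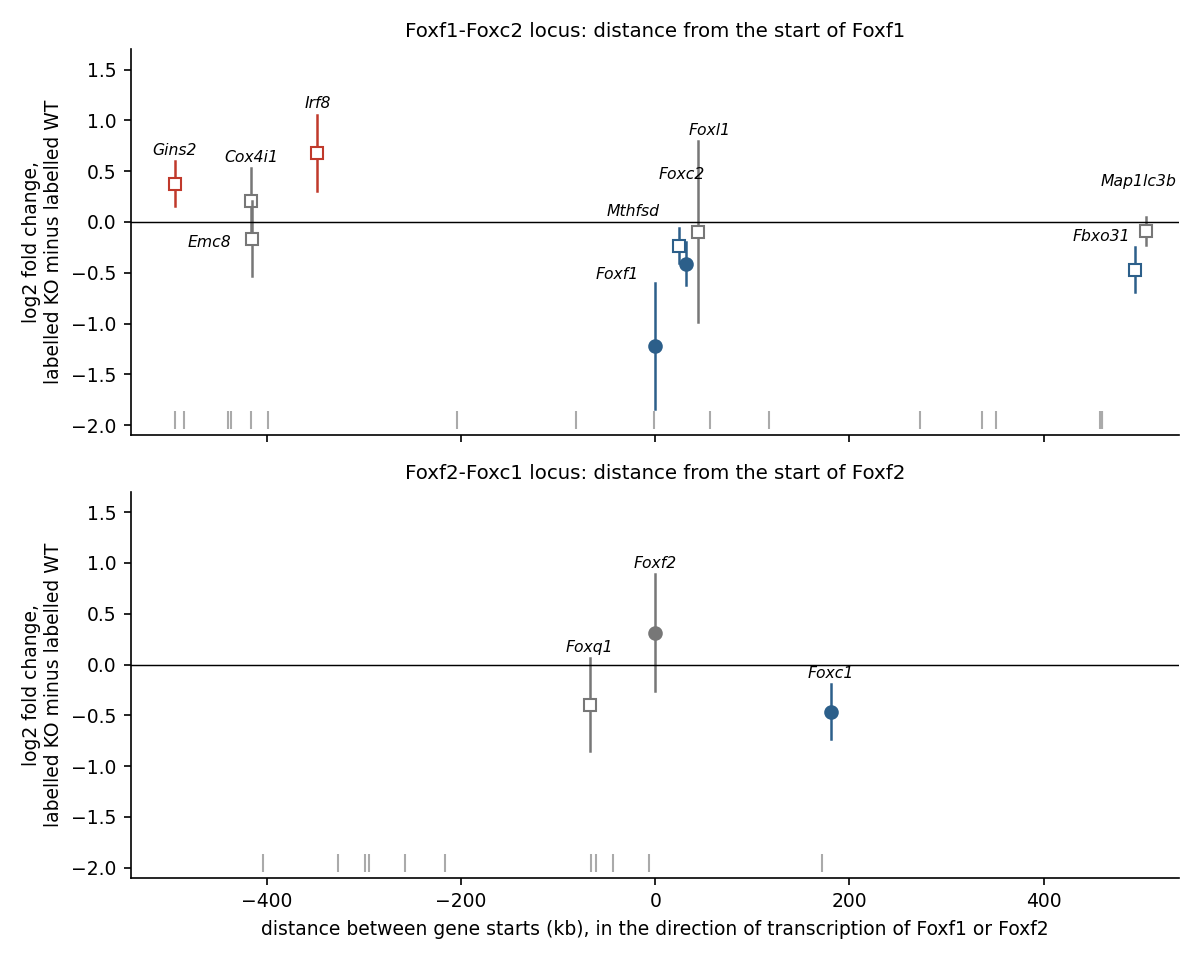
Log2 fold change (libraries labelled KO minus those labelled WT, bars show 95% intervals from edgeR) of the tested genes by distance in kb from the start of *Foxf1* (top) or *Foxf2* (bottom). Filled circles are the *Foxf* and *Foxc* genes, open squares are neighbours, red, blue and grey mark higher, lower and not called, and ticks at the base are listed genes that were not tested. Tested neighbours of *Foxf1* lie on both sides of 0, from -0.47 to 0.68.

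Fibroblast marker RNA was set beside the 8 genes by dividing each by the 12 summed fibroblast markers of the same library, a sum made up mostly of the collagen RNAs *Col1a1*, *Col1a2* and *Col3a1*. The ratios of *Foxc1*, *Foxc2*, *Foxp1* and *Foxs1* overlapped between the groups, with log2 differences of -0.06, 0.00, 0.10 and -0.04. Their log2 fold changes, from -0.47 to -0.32, lay within the range of the markers, whose median was -0.41. *Foxf1* remained below, with a log2 difference of -0.81 and no overlap, a pattern held by 0.916% of all genes tested. *Foxf2*, *Foxo1* and *Foxo3* were above without overlap, by 0.74, 0.84 and 0.41, but 65.5% of all genes tested were, since the markers themselves fell. Without the 3 collagen genes, an alternative chosen after seeing the data, the difference of *Foxf1* was -0.82 and the same 4 genes overlapped. Markers of mural cells, cardiomyocytes, the epicardium and macrophages had median log2 fold changes of -0.42, -0.41, -0.41 and -0.38, and the part of each cell type in the levels of *Foxc1*, *Foxc2*, *Foxp1* and *Foxs1* cannot be told apart.

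**Figure D4:**
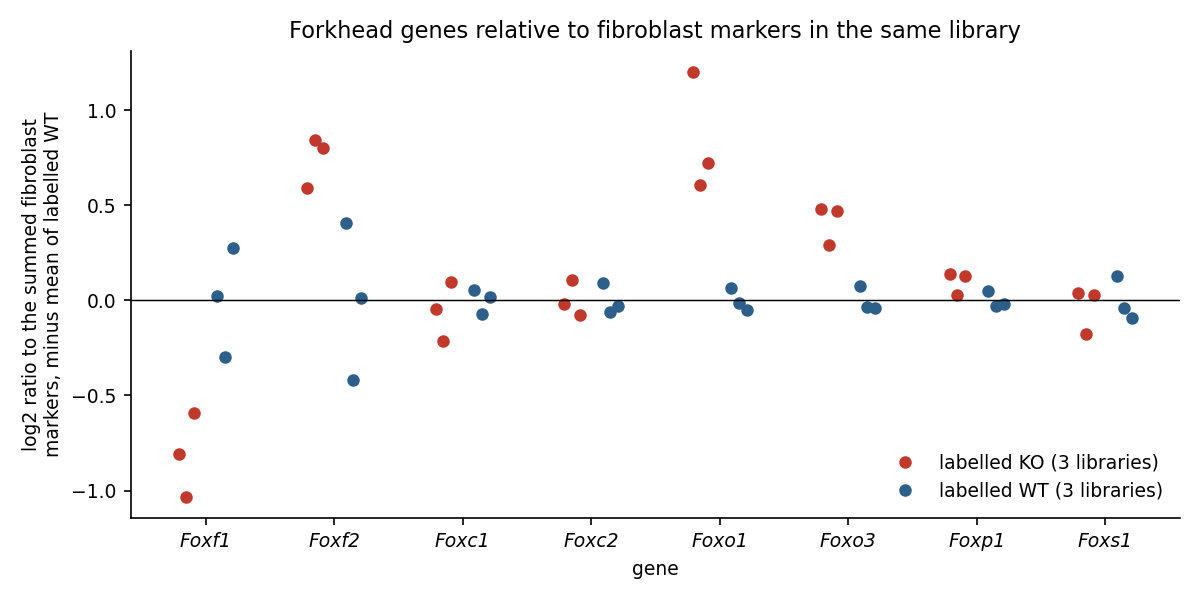
Log2 ratio of each of the 8 genes to the 12 summed fibroblast markers of the same library, minus the mean of the libraries labelled WT, for the 3 libraries labelled KO (red) and the 3 labelled WT (blue). *Foxf1* lies below 0 in the libraries labelled KO, *Foxf2*, *Foxo1* and *Foxo3* lie above the libraries labelled WT, and the other 4 genes intermingle.

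The hedgehog pathway, which acts upstream of the *Foxf* genes, was read from a list of 19 genes. Of the 14 that were tested, 1 was higher, 5 were lower and 8 did not pass, beside 17.7% higher and 12.5% lower of all genes tested, with a median log2 fold change of -0.19. Among the ligands, *Dhh*, which Schwann and endothelial cells make, was the higher gene, at 14.5, 10.3 and 14.0 CPM under KO, where WT libraries had 1.33, 0.955 and 1.49 CPM, and its log2 fold change was 3.35 (SE 0.22). *Shh* and *Ihh* had too few counts to be tested. The receptor *Ptch1*, itself a hedgehog target, was at 0.02 (SE 0.10) and the transducing receptor *Smo* at -0.13 (SE 0.06), and neither passed. The targets *Gli1*, with 7, 3 and 3 counts against 2, 2 and 0, and *Hhip*, with 9, 1 and 10 against 2, 0 and 0, were too low to be tested. The lower genes were the co-receptors *Gas1* (-0.45) and *Boc* (-0.40), the cilium genes *Kif7* (-0.35) and *Evc2* (-0.26) and the transcription factor *Gli2* (-0.61, SE 0.17, edgeR adjusted p = 0.0248). The count of 5 was 3 under DESeq2, library size scaling and both limma fits and without KO replicate 1, KO replicate 3, WT replicate 1 or WT replicate 2, and 2 without WT replicate 3. The fibroblast markers had a median of -0.41, and their part in the lower hedgehog genes was not tested. Markers of Schwann cells summed to 3.30 to 5.19 CPM over all libraries, and the part of endothelial markers in the *Dhh* result was not tested.

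The genes that set Foxo activity, from insulin receptors to the proteins that hold Foxo in the cytoplasm, were read from a list of 27. Of the 27 tested, 2 were higher, 4 were lower and 21 did not pass, where 17.7% and 12.5% of all genes tested were higher and lower, and the median of their log2 fold changes was -0.02. The insulin receptor substrates *Irs1* and *Irs2*, which link the receptors to PI3-kinase, were both lower, at -0.57 (SE 0.08) and -0.49 (SE 0.12), as were the PI3-kinase subunit *Pik3cd* at -0.54 (SE 0.15) and the kinase *Akt1* at -0.22 (SE 0.05). The fibroblast markers, at a median of -0.41, were lower too, and their part in these values was not tested. The lipid phosphatase *Inpp5d*, best known from blood cells, was higher at 1.79 (SE 0.14), with 72.0, 52.9 and 53.7 CPM against 16.0, 19.1 and 16.5 CPM. The Hippo kinase *Stk3* was higher at 0.36 (SE 0.08). *Akt2*, *Sgk1* and the 4 listed 14-3-3 genes, whose proteins retain Foxo in the cytoplasm, did not pass, with values from -0.27 to 0.13. Phosphorylation, which decides where Foxo proteins are, was not measured here.

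Genes named as Foxo targets in other cells were read from a further list. Of 32 listed, 28 were tested, of which 5 were higher, 2 were lower and 21 did not pass, against 17.7% higher and 12.5% lower of all genes tested, and the median of their log2 fold changes was 0.00. The higher genes were the cell death gene *Bcl2l11* at 1.17 (SE 0.24), the mitophagy gene *Bnip3* at 0.94 (SE 0.10), the repressor *Bcl6* at 0.80 (SE 0.11), *Txnip* at 0.68 (SE 0.12) and *Gadd45b* at 0.24 (SE 0.06). *Bcl2l11* was at 47.5, 22.2 and 37.2 CPM under KO, as compared with 15.2, 16.8 and 15.5 CPM under WT. It was highest in KO replicate 1, as were *Foxo1*, *Bnip3*, *Bcl6*, *Txnip* and the summed endothelial markers, but not *Gadd45b*. The part of the endothelial markers in these values was not tested. The lower genes were *Pink1* at -0.32 (SE 0.07) and the mitochondrial antioxidant gene *Sod2* at -0.25 (SE 0.05), and without KO replicate 2 there were 4 lower genes. The cell cycle inhibitors *Cdkn1a* and *Cdkn1b*, at -0.14 and 0.14, and the muscle ligases *Fbxo32* and *Trim63*, at -0.23 and -0.52, did not pass. The metabolic targets *G6pc* and *Igfbp1* were at 0 in every library.

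Genes that have been linked to *Foxf* or *Foxc* factors in vessels formed a short list of 11, of which 7 were higher, 2 were lower and 2 did not pass, beside 17.7% higher and 12.5% lower of all genes tested, with a median log2 fold change of 1.09. Of the 6 linked to *Foxf*, *Kdr*, the main VEGF receptor, rose the most at 4.23 (SE 0.27), from 8.67, 9.07 and 8.88 CPM in the libraries labelled WT to 240.0, 122 and 140 CPM in those labelled KO. The sphingosine phosphate receptor *S1pr1* was at 2.48 (SE 0.18), *Bmp4* at 1.10 (SE 0.30) and the angiopoietin receptor *Tek* at 0.53 (SE 0.08), while the growth factor *Hgf* was lower at -0.68 (SE 0.18). Of the 5 linked to *Foxc*, the integrin gene *Itgb3* (3.05, SE 0.17), the Notch ligand *Dll4* (1.69, SE 0.24) and its receptor *Notch1* (1.09, SE 0.08) were higher, and the chemokine receptor *Cxcr4* was lower (-0.78, SE 0.17). Without KO replicate 3, WT replicate 2 or WT replicate 3, 1 of the 11 genes was lower. *Kdr* and *Tek* are also in the endothelial marker list, whose median log2 fold change was 2.55. The part of these endothelial markers in the list's values was not tested.

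**Figure D5:**
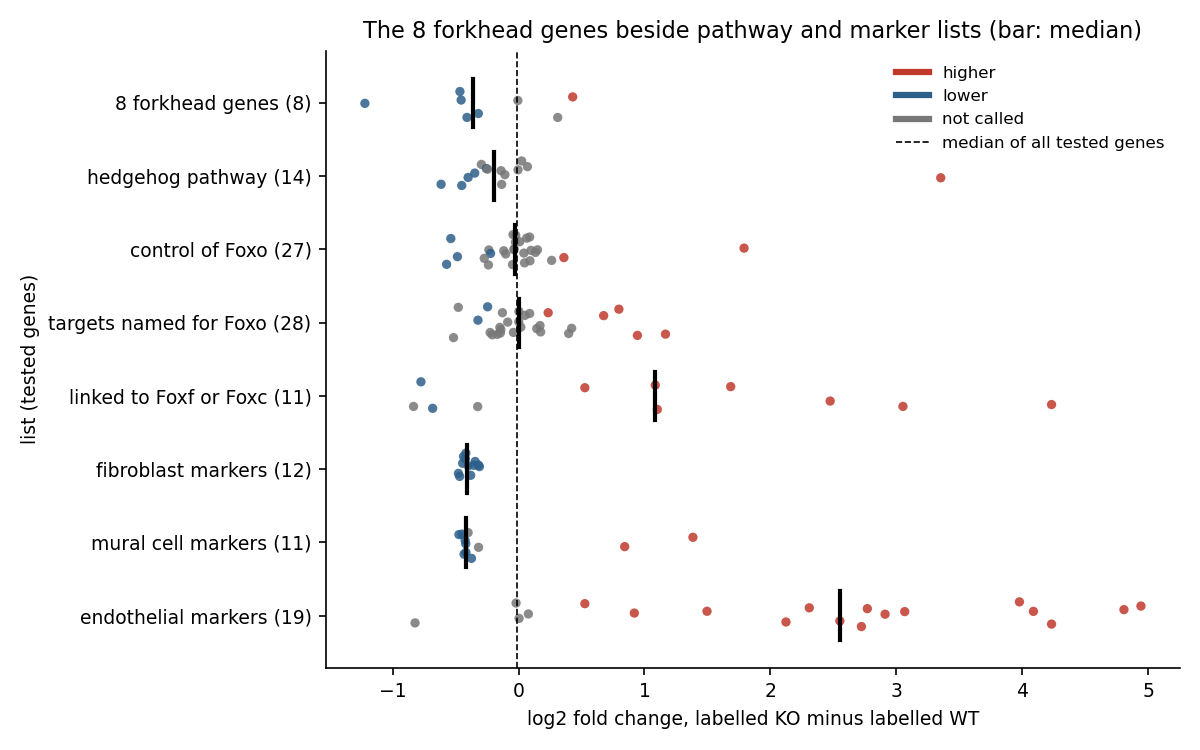
Log2 fold change (libraries labelled KO minus those labelled WT) of every tested gene in the set of 8 forkhead genes and in 7 pathway and marker lists, with the number tested in parentheses, the median as a black bar and the median of all tested genes as a dashed line. Red, blue and grey mark genes called higher, lower and not called. The 8 forkhead genes spread around a median of -0.36, the fibroblast markers are all near -0.41 and the endothelial markers have a median of 2.55.

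By library profile, measured as the root mean square difference of centred log2 CPM over the 6 libraries among 13480 genes, the genes nearest to *Foxo1* were *Ubald2* (0.0201), *Dgkd* (0.0257), *Cbwd1* (0.0279), *Slc25a25* (0.0309) and *D6Wsu163e* (0.0395). Their log2 fold changes, from 0.40 to 0.44, follow from this choice. Those nearest to *Foxf1* were *Tmem198* (0.0851), *Rtn4rl1* (0.161), *Pamr1* (0.170), *RP24-179I4.3* (0.181) and *B930041F14Rik* (0.185), with log2 fold changes from -1.19 to -0.92, which the choice likewise fixed.

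Promoter sequence was available from RefSeq (GRCm38.p6) for 5 of the 8 genes, with 7 start sites. The 250 bases before the start are shown for *Foxo1*, the gene that rose, and for the most upstream *Foxp1* start, the promoter among the 7 that holds TGTTTGC, a variant of the core in 1 letter, 5′ to 3′ along each gene, at chr3:52268087-52268336 (plus strand) and chr6:99520994-99521243 (minus strand). Capitals mark matches to TGTTTAC or TGTTTGC on either strand.
Foxo1: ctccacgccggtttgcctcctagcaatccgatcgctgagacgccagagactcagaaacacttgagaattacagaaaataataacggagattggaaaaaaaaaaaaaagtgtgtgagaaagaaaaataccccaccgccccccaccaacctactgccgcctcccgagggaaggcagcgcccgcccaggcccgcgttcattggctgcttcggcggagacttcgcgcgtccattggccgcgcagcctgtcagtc
Foxp1: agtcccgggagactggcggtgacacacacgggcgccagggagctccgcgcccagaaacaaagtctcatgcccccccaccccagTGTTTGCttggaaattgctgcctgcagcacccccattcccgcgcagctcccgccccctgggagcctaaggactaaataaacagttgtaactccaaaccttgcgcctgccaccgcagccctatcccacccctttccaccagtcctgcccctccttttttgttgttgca

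The letters TGTTTAC were found in 0 of the 7 promoters, against 3.17% of 32851 promoters of the same length, and TGTTTGC in 1, against 4.30% of all. The 2 motifs differ in 1 letter, so that no match counts for both. The share of G and C was 56.0% before *Foxo1*, the lowest of the genes with 1 start site, 70.8% before *Foxc1*, 71.6% before *Foxf2* and 76.4% before *Foxo3*, with a median of 52.4% over all promoters. The counts do not tell which of the 3 *Foxp1* starts was used.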

How the data were processed

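RNA-seq of 3 libraries labelled KO and 3 labelled WT was analysed. The authors mapped paired-end reads from strand-specific libraries to mm10 with HISAT2, and the submitters' processing notes also name GRCm38.p4 and edgeR. The counting tool, its annotation and strand setting are not given in the sources used here. Counts were deposited as unscaled whole numbers for each gene. The authors computed FPKM from a length and the depth of the library, but which length was used is not given. For *Foxp1* and *Foxo3* it was above that of the longest annotated transcript, as their CPM and FPKM show. No row lacked a gene name.

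The quasi-likelihood test of edgeR 4.0.16 (R 4.3.3) was applied to the counts after its filterByExpr step and TMM scaling, in a fit of all 6 libraries without covariates. Its p-values were adjusted by Benjamini-Hochberg over 14084 genes, and a change was called at an adjusted p under 0.05. The SE is the log2 fold change over the square root of F, and intervals are at 95%. The script was first tested on simulated data. CPM values are TMM-normalised. Alternatives were other filters and scalings, DESeq2 1.42.0, limma 3.58.1 on log2(FPKM + 1) and on log2(FPKM + 0.1), a replicate block and each library left out in turn.

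The 8 genes and all lists were chosen with earlier results of these data known. Named genes are the 8, the other forkhead genes and neighbours within 500 kb that were tested, called genes of the pathway lists, the 5 nearest profiles of the largest rise and fall, and *Kdm5b*. The marker genes, and the pathway genes that are named without a call, were chosen after their values were seen. Between replicates of a label, 22.4% to 32.2% of genes were past an unadjusted p of 0.05 in a test against sampling noise, where noise alone would give about 0.05 of the genes, and the biological coefficient of variation was 10.9%. Nothing says that the libraries came from separate animals, so p-values measure only the spread between these samples. Precision is limited by 3 libraries per label. Promoters came from RefSeq and coding sequences from GENCODE M21, where 7 of the 8 genes had the coordinates of the deposited table and *Foxc1* did not. Figures were drawn with matplotlib 3.10.9.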

Additional observations from a re-analysis of the deposited data

How the results depend on the processing

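Over 15 alternatives, the calls of *Foxf1*, *Foxc2*, *Foxp1* and *Foxs1* held and *Foxf2* and *Foxo3* were not called in any. *Foxf1* ran from -1.36 to -0.46, the latter on log2(FPKM + 1), which understates the change of low genes, with adjusted p from 0.00523 to 0.0372. With single libraries left out, *Foxc1* ran from -0.56 to -0.41 over the 6 fits and lost its call in 4 of them, and *Foxo1* ran from 0.31 to 0.51 and lost its call in 1, at 0.42. For *Foxo3*, near 0, the sign changed with library size scaling (0.029) and limma on log2(FPKM + 1) (0.024) or log2(FPKM + 0.1) (0.027), and leaving out single libraries gave -0.045 to 0.026. The count of lower genes, 1760, was 1144 without KO replicate 3 and ran from 1144 to 1636 over the libraries left out. It was 2263 under upper quartile scaling and 1386 to 1424 under DESeq2, library size scaling and both limma fits. The replicate numbers did not pair the samples (correlations of same-numbered samples 0.002, 0.003 and 0.035). The replicate block gave 2316 genes higher and 1591 lower, and *Foxc1* and *Foxo1* at adjusted p of 0.0312 and 0.0215, with no call among the 8 genes changed. Among the lists, the 2 lower genes linked to *Foxf* or *Foxc* were 1 under DESeq2 and both limma fits, and the 2 lower Foxo targets were 5 under upper quartile scaling. The causes were not tested. Low counts limit *Foxf1*, *Foxf2* and *Foxl1*.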

Other observations

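Marker lists of other cells were measured beside the 8 genes, where 17.7% of all genes tested were higher and 12.5% lower. Of 11 macrophage markers, 6 were lower and 2 were higher in the libraries labelled KO, with a summed level of 1257 to 1289 CPM against 1532 to 1643 CPM, and the 2 higher genes are near the share over all genes. Of 11 cardiomyocyte markers 7 were lower and 0 were higher, and of 8 epicardial markers 7 were lower and 1 was higher. Of 8 mast cell markers 3 were tested and 2 were higher. *Gata2*, which other cell types also express, was at 30.5 to 33.6 CPM against 2.87 to 4.91 CPM, and *Tpsab1* at 5.77 to 7.15 CPM where the libraries labelled WT had 0. *Tpsab1* therefore passed the low-count filter only through the libraries labelled KO, and its direction was fixed by that filter. *Hdc* did not pass, and *Cpa3*, *Tpsb2* and *Fcer1a* were at 0 in every library. Neutrophil markers summed to 5.55 to 8.83 CPM against 0.546 to 1.54 CPM, with both tested genes higher. None of the lymphocyte and erythroid markers had enough counts to be tested, and the 1 tested Schwann cell marker did not pass.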
